A study of Mus musculus with 10 samples.

Results

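The SLC25 carriers are the transporters that move metabolites across the mitochondrial inner membrane. The genes described here are all those in the deposited heart table whose symbol begins with Slc25a and a number, 47 of 24537 genes. Of these, 44 had at least 10 counts summed over all hearts and were tested, as were 17728 genes in all. The other 3, Slc25a41, Slc25a48 and Slc25a54, had at most 3 counts in any heart.

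Hearts of 10 mice were taken at 6 weeks of age for RNA sequencing, 5 from controls (Rosa26-rtTA2+/-;TRE-SOD2-shRNA-/-) and 5 from iSOD2 mice (Rosa26-rtTA2+/-;TRE-SOD2-shRNA+/-), bred from C57BL/6J dams. In the model, doxycycline lets the transactivator rtTA2, driven by the Rosa26 promoter, switch on a short hairpin RNA against Sod2 that is carried at the Col1a1 locus. Both groups carried rtTA2 and were exposed to doxycycline through the chow of their dams until birth, with normal chow afterwards, so doxycycline had been withdrawn for 6 weeks. Males numbered 3 among the controls and 2 among the iSOD2 mice, the rest being female, and of each genotype 2 mice came from one litter (called A here) and 3 from the other (B).

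Between 16448090.5 and 24263085.5 counts fell in genes per library, and the carriers took 0.529% to 0.635% of them. Sod2, the targeted gene, did not separate the groups at this age, at 9562 to 11020 normalized counts (control) and 10120 to 11310 (iSOD2; log2 fold change 0.03, SE 0.05, DESeq2 adjusted p 0.806). The tissue label held, since 8 ventricular cardiomyocyte genes summed to between 1567000 and 1922000 normalized counts in every heart, while 3 white adipocyte genes summed to at most 15.1. Of 4 atrial genes with enough counts all had positive fold changes. DESeq2 gave a p to Nppa alone (adjusted p 0.226, not called) and none to Myl4, Myl7 and Sln. In these genes 2 iSOD2 hearts stood apart. In iSOD2 10 Myl7 was at 372 normalized counts against at most 5.87 in the others and Sln at 67.9 against at most 0.988, and in iSOD2 8 Nppa was at 7592 against at most 2071. In RNA from whole tissue, fewer cells of a type and less RNA per cell cannot be told apart.

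Mitochondria take in ADP, phosphate and fuels and send out ATP and intermediates such as citrate, and nearly all of these crossings use a carrier of this family. The heart, which makes most of its ATP in mitochondria, relies on adenine nucleotide exchange and phosphate import for ATP synthesis, on the carnitine carrier for fatty acids, and on the malate and aspartate carriers to bring in reducing equivalents. Other members serve smaller traffic in cofactors, nucleotides, amino acids, glutathione and iron. Some of the carriers still have no agreed substrate.

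Between genotypes 2 carriers passed the study's criteria of a DESeq2 adjusted p of at most 0.05 and an absolute log2 fold change above 0.25. Slc25a33, which carries pyrimidine nucleotides, rose in iSOD2 hearts, and Slc25a42, the coenzyme A carrier, fell. Slc25a47, a carrier best known from liver, had the largest difference of the better measured members, but DESeq2 gave it no adjusted p by default because its mean count was low. The bases upstream of these 3 genes are shown first because they have the largest absolute fold changes among members whose mean normalized count reached 50. The sequences are 250 bases before each start site, written along the gene's own strand, from RefSeq on GRCm38.p6, and each start site fell on the gene start in the deposited table. Capitals mark matches to CCAAT or its reverse complement ATTGG, and to CACGTG, the E box.
Slc25a47, chr12:108850879-108851128, plus strand: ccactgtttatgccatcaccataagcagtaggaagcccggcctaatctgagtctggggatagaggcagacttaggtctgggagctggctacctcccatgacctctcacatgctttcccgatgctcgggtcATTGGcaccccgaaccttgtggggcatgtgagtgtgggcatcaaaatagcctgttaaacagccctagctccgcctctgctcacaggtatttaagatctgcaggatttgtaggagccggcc
Slc25a33, chr4:149774268-149774517, minus strand: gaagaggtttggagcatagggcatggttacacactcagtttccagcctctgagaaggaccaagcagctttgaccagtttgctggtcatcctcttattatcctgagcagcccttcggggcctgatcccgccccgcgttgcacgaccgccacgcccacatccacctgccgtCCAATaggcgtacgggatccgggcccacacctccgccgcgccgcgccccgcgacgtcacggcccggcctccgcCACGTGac
Slc25a42, chr8:70212282-70212531, minus strand: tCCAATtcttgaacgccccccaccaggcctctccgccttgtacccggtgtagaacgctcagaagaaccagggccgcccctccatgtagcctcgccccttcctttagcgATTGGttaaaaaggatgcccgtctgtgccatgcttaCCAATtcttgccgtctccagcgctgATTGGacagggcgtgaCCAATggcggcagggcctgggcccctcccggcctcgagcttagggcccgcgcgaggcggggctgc

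These windows differ in composition and in the motifs they hold. The G and C content was 54.4% before Slc25a47, 64.4% before Slc25a33 and 63.6% before Slc25a42, against a median of 52.4% over all 32851 windows of the same length. A CCAAT match on either strand was in 16 of the 36 carriers with a window (44.4%) and in 33.8% of all windows. Slc25a42 had 5 such matches, where 0.213% of all windows had at least that many, and no other carrier had that many. An E box was before 6 of 36 carriers (16.7%) and 6.02% of all windows, and the holders were Slc25a1, Slc25a13, Slc25a14, Slc25a31, Slc25a33 and Slc25a36. The core TATAA, read on both strands, was before 2 of 36 carriers (5.56%), Slc25a15 and Slc25a18, and in 22.8% of all windows. TGACGTCA, the cAMP response element, was before Slc25a36 alone (1.55% of all windows). AAGGTCA, a nuclear receptor element, was before Slc25a34 alone (4.08% of all windows). GCGCATGC, an NRF1-type element, was before Slc25a31 and Slc25a54 (2.26% of all windows). A match is a run of letters and not a shown binding site.

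A few carriers supplied most of the family's transcripts. The level compared between genes here is counts per kb of exon, scaled to a sum of 1000000 over all genes of a library. On this scale Slc25a4, the adenine nucleotide translocase of heart and muscle, stood at 7333 ± 466 (SD, n = 10 hearts) and made up 64.8% of the summed level of all carriers. Slc25a3, which imports phosphate and copper, followed at 1526 ± 65.0, Slc25a11, the oxoglutarate and malate exchanger, at 557 ± 36.0, and Slc25a5, the second adenine nucleotide translocase, at 422 ± 31.1. The order of these 4 was the same in all 10 hearts, with no overlap between neighbours. Slc25a20, the carnitine and acylcarnitine carrier, at 223 ± 16.5, Slc25a12, an aspartate and glutamate exchanger, at 211 ± 13.6, and Slc25a34, which has no agreed substrate, at 207 ± 24.5 overlapped in level.

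Most other carriers were far scarcer. Of the 47 carriers, 9 had a mean level over 100, 20 lay between 10 and 100, 11 between 1 and 10, and 7 below 1. Slc25a39, which brings glutathione into the matrix, stood at 153 ± 7.73 and its relative Slc25a40 at 8.84 ± 0.713. Slc25a51, the NAD+ carrier, stood at 51.9 ± 4.58. Slc25a1, the citrate carrier that feeds cytosolic acetyl-CoA, was at 9.91 ± 1.31, beside Slc25a29 at 9.68 ± 1.47 and Slc25a10 at 10.3 ± 0.548, and these 3 could not be ordered beyond their spread. Slc25a47 ran from 5.65 to 14.85. The 7 lowest were Slc25a53, Slc25a31, Slc25a43, Slc25a41, Slc25a21, Slc25a54 and Slc25a48, the last with 0.5 counts in 1 heart and 0 in the others, where 0 counts allow up to 3 counts per library for counting error alone.

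**Figure D1:**
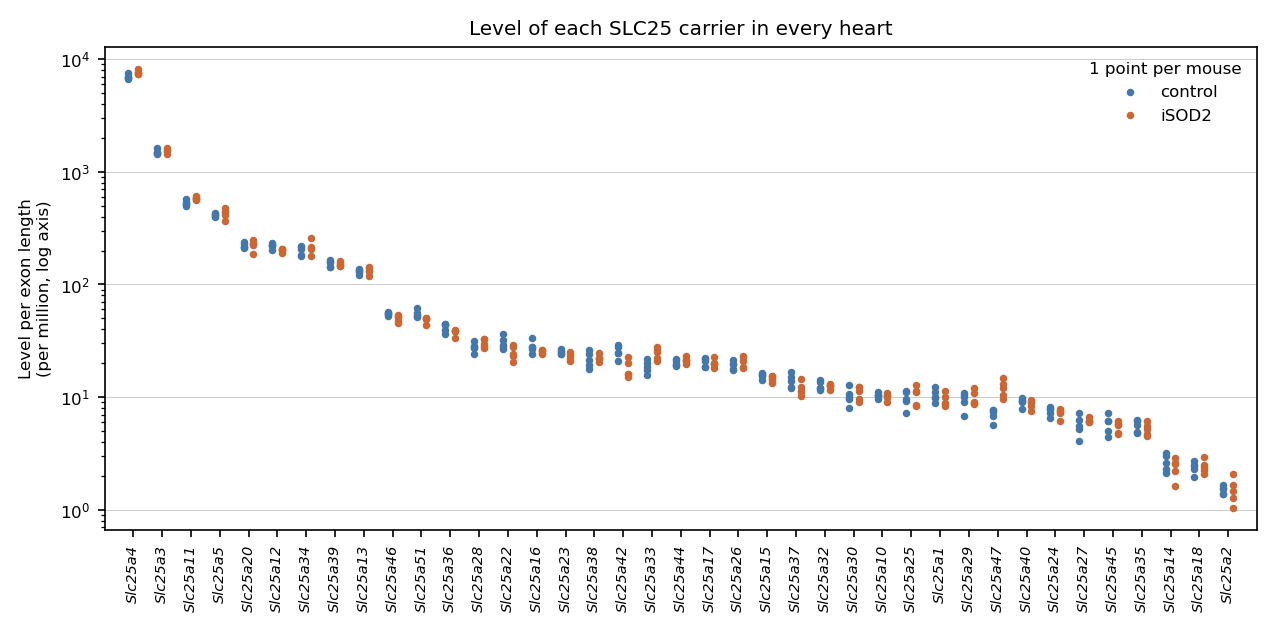
Level of 39 of the 40 carriers with a mean above 1, on a log axis in counts per kb of exon per 1000000, with 1 point per heart (blue, 5 controls; orange, 5 iSOD2). Slc25a4 stands at 7333 on average and the next carrier, Slc25a3, at 1526; the 2 genotypes separate visibly for Slc25a47 and overlap for most others.

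The summed level of the family was 10930 ± 408 among controls (range 10510 to 11610) and 11690 ± 368 among iSOD2 hearts (range 11350 to 12240; SD, n = 5 per genotype), so that control 4 lay among the iSOD2 hearts. Slc25a4 alone made 64.0% ± 0.444 of it in controls and 65.6% ± 0.962 in iSOD2 hearts. The 5 highest carriers together made 88.5% ± 0.363 in controls and 89.4% ± 0.309 in iSOD2 hearts.

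Across the family the genotype differences were small. Of 44 carriers tested, 27 had a positive and 17 a negative log2 fold change, with a median of 0.05 against 0.00 over all genes tested (49.6% of which were positive). Of the 30 carriers with an adjusted p, 1 was called higher (Slc25a33) and 1 lower (Slc25a42), where 1.27% of 9479 genes with an adjusted p were called higher and 1.7% lower, 2.96% in all. An adjusted p of at most 0.05 at any fold was reached by 4 carriers, Slc25a4 and Slc25a11 being the others, against 6.09% of genes. An unadjusted p under 0.05 was found for 8 of 44, 5 higher and 3 lower, against 13.2% of genes. In 3 carriers, Slc25a47, Slc25a4 and Slc25a11, every iSOD2 heart was above every control in normalized counts, as in 2.09% of genes. In none was every iSOD2 heart below every control in normalized counts, as in 1.66%. On the level per kb, control 4 was above iSOD2 8 for Slc25a4 (7502 against 7457) and Slc25a11 (577 against 560.5). Of these 3, only Slc25a47 stayed apart on that scale too. Slc25a51, which overlapped in normalized counts, was apart downward per kb, at 51.43 to 61.41 in controls and 44.0 to 50.46 in iSOD2 hearts. The share of all genes apart per kb was not counted. The median absolute fold change of the carriers with an adjusted p was 0.09 on the log2 scale, beside 0.08 over all such genes.

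**Figure D2:**
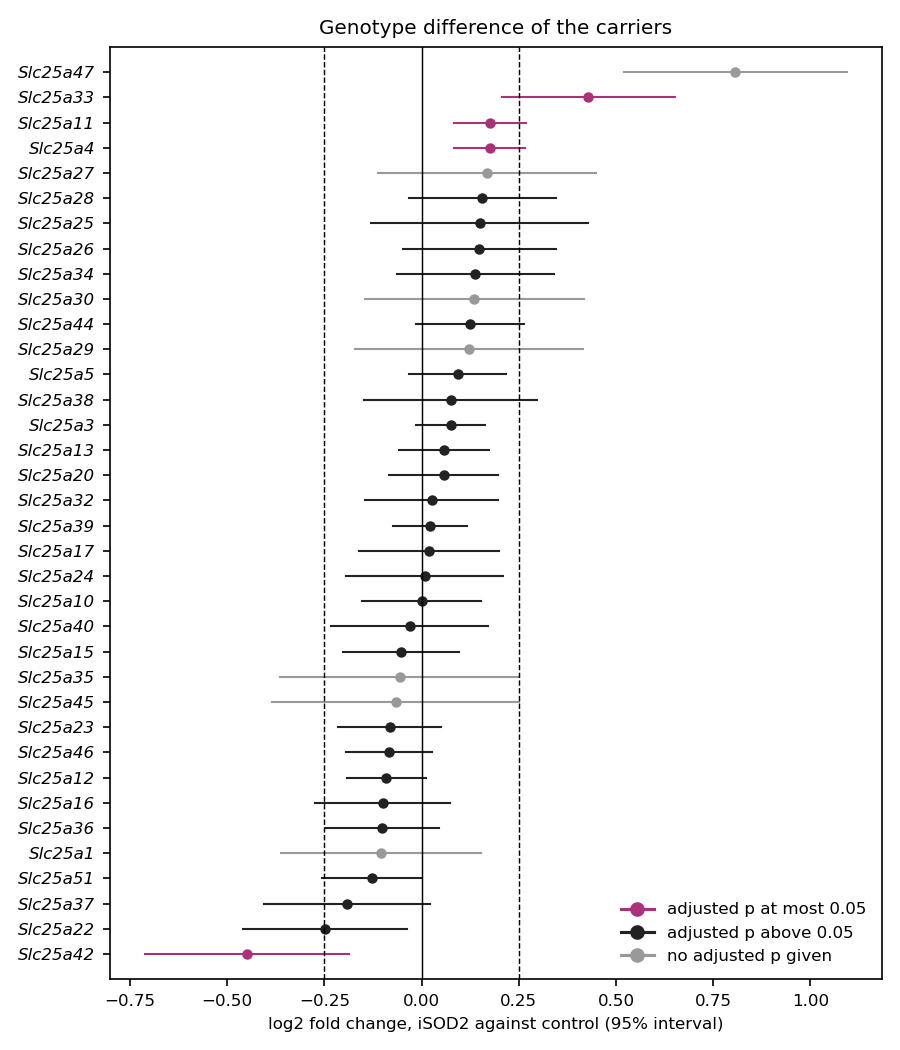
Log2 fold change of iSOD2 against control hearts for 36 of the 37 carriers whose mean normalized count reached 50, with 95% intervals from DESeq2; dashed lines mark an absolute log2 fold change of 0.25. Slc25a47 is at 0.81, Slc25a33 at 0.43 and Slc25a42 at −0.45, while most intervals include 0.

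Slc25a47 lies on chromosome 12, from 108851129 to 108856815 on the plus strand in mm10. It is annotated as a mitochondrial carrier and is known mainly as a liver gene. Normalized counts in controls 1, 2, 3, 4 and 6 were 81.4, 68.0, 86.5, 88.9 and 89.0. In iSOD2 mice 5, 7, 8, 9 and 10 they were 157, 118, 145, 127 and 177. The lowest iSOD2 heart was thus above the highest control. The log2 fold change of Slc25a47 was 0.81 (SE 0.15), or 1.75-fold between the means, and its unadjusted DESeq2 p of 3.42e-08 ranked 7 among 17728 genes. It had no adjusted p because independent filtering, which leaves out genes of low mean count, stopped at a mean of 161 normalized counts. With that filtering off, a setting chosen after its values were seen, Slc25a47 had an adjusted p of 7.82e-05 and was called, beside 1.52% of genes under the same rule. EdgeR and limma voom called 0 of 17728 genes (2718 and 2751 had an unadjusted p under 0.05), and the adjusted p of Slc25a47, 0.0664 and 0.0713, equalled the lowest that each gave to any gene. The fold change of Slc25a47 was 0.81 within litter A, 0.80 within litter B, 0.64 in males and 0.84 in females. It was 0.81 without iSOD2 8 and 0.73 without iSOD2 10, the hearts high in atrial genes.

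Hepatocyte transcripts were present in these hearts at uneven levels. The 12 hepatocyte genes, Alb, Apoa1 and Ttr among them, all had positive fold changes (1 called, Apoa2), none was at 0 in any heart, and they summed to 245 to 11460 normalized counts in controls and 5592 to 23090 in iSOD2 hearts. Control 1, with a sum of 245, had 81.4 normalized counts of Slc25a47. Control 3 had a sum of 11460 and iSOD2 9 a sum of 11280, with 86.5 and 127 normalized counts of Slc25a47. Within the iSOD2 group Slc25a47 was lowest in mouse 7, with the lowest hepatocyte sum (5592), and highest in mouse 10, with the highest (23090). With the hepatocyte level as a covariate, added after the data were seen, the fold change of Slc25a47 was 0.71 (SE 0.18, unadjusted p 7.26e-05, no adjusted p). In the same fit Slc25a42 was at −0.29 (adjusted p 0.233) and Slc25a33 at 0.47 with no adjusted p, and 155 of 6388 genes were called. The hepatocyte level itself differed between genotypes (mean log2 normalized count 7.09 in controls, 8.93 in iSOD2 hearts), so this fit cannot separate it from genotype. The part of hepatocyte RNA in the Slc25a47 values was not tested.

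**Figure D3:**
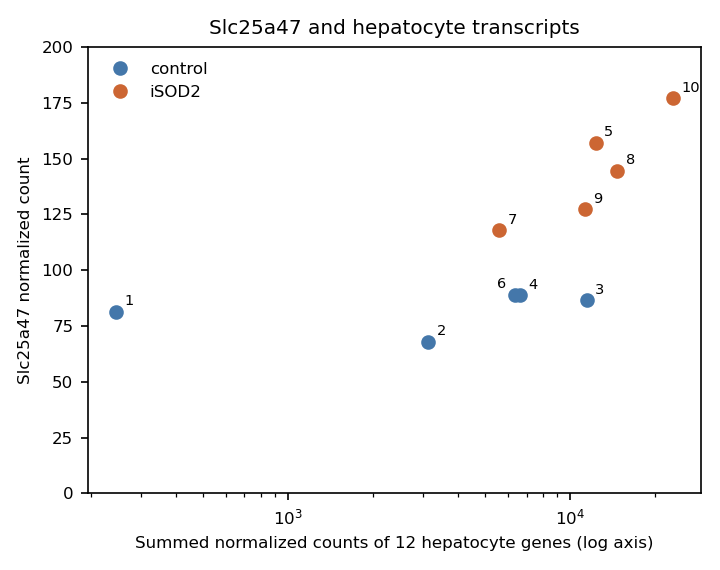
Normalized count of Slc25a47 (vertical axis) against the summed normalized counts of 12 hepatocyte genes on a log axis (horizontal), 1 numbered point per mouse (blue, control; orange, iSOD2). Controls stay between 68.0 and 89.0 while the hepatocyte sum runs from 245 to 11460, and the iSOD2 hearts lie at 118 to 177.

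Among the carriers of nucleotides and cofactors, 2 of 8 were called, in opposite directions, beside 2.96% of genes with an adjusted p. These were the only 2 carriers called, and roles were assigned with earlier results of these data known. Slc25a33 (chromosome 4, 149744036 to 149774267, minus strand), whose upstream window holds the E box above, had normalized counts of 260, 310, 241, 278 and 219 in controls 1, 2, 3, 4 and 6. In iSOD2 mice 5, 7, 8, 9 and 10 Slc25a33 had 399, 373, 372, 299 and 315. Only iSOD2 9 fell inside the control range, below control 2. Slc25a33 rose by 0.43 on the log2 scale (SE 0.11, adjusted p 0.0075 by DESeq2), with 0.39 in litter A, 0.46 in litter B, 0.31 in males and 0.54 in females. Without control 3 the adjusted p of Slc25a33 was 0.0588, and with edgeR, which called no gene, it was 0.089. Without iSOD2 8 the fold change was 0.41 (adjusted p 0.0354) and without iSOD2 10 it was 0.47 (adjusted p 0.00826). An annotated antisense gene, Gm13068, shares 281 bases of its exons, and the counting stated no strand option.

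Slc25a42 (chromosome 8, 70184340 to 70212281, minus strand) had normalized counts of 692, 678, 582, 577 and 488 in controls 1, 2, 3, 4 and 6 and of 495, 574, 388, 366 and 386 in iSOD2 mice 5, 7, 8, 9 and 10. Control 6 lay below iSOD2 5 and iSOD2 7, and the other controls lay above every iSOD2 heart. Slc25a42 fell by 0.45 on the log2 scale (SE 0.13, DESeq2 adjusted p 0.0208), with −0.51 in litter A, −0.40 in litter B, −0.47 in males and −0.33 in females. The adjusted p of Slc25a42 lay between 0.064 and 0.0903 when control 1, 2 or 3 or iSOD2 8, 9 or 10 was left out, and it was 0.128 with edgeR, which called no gene. Slc25a16, another carrier tied to coenzyme A, had a fold change of −0.10 (SE 0.09). Slc25a36, the other pyrimidine nucleotide carrier, was at −0.10 (SE 0.07) and Slc25a51 at −0.13 (SE 0.07, adjusted p 0.247). Slc25a32, the folate and FAD carrier, was at 0.03 (SE 0.09) and Slc25a17, the peroxisomal coenzyme A carrier, at 0.02 (SE 0.09).

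**Figure D4:**
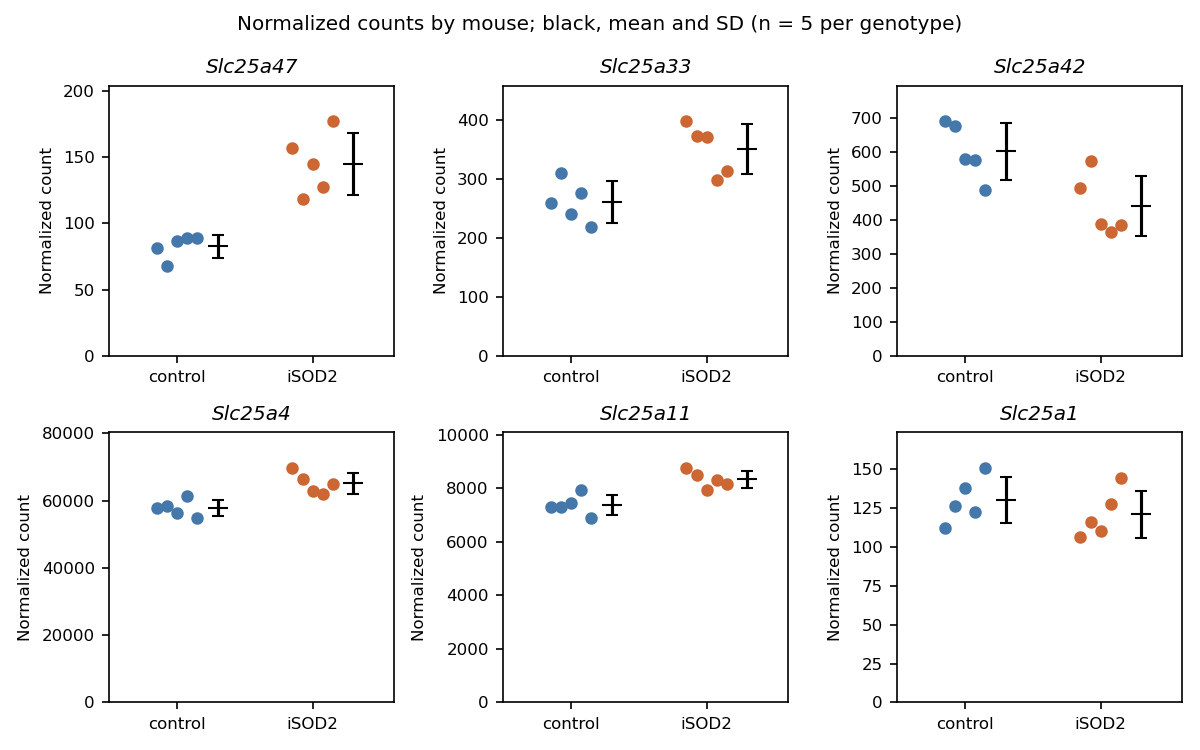
Normalized counts of 6 carriers in each heart (vertical axes start at 0; blue, 5 controls; orange, 5 iSOD2), with the mean and SD in black. The genotypes do not overlap for Slc25a47, Slc25a4 and Slc25a11, overlap by 1 iSOD2 heart for Slc25a33, and overlap in part for Slc25a1.

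The adenine nucleotide carriers exchange matrix ATP for cytosolic ADP. Slc25a4 had 57840, 58320, 56190, 61310 and 54880 normalized counts in controls 1, 2, 3, 4 and 6 and 69760, 66290, 62830, 61970 and 64800 in iSOD2 mice 5, 7, 8, 9 and 10. On this scale every iSOD2 heart was above every control, while on the level per kb control 4 (7502) was above iSOD2 8 and 9 (7457 and 7337). The difference was 0.17 on the log2 scale (SE 0.05, adjusted p 0.00798 by DESeq2), under the fold threshold, and the adjusted p of Slc25a4 was 0.0701 without control 3. Slc25a5 ran from 3900 to 4203 normalized counts among controls (median 3926) and from 3705 to 4716 among iSOD2 hearts (median 4379), a fold change of 0.09 (SE 0.06, adjusted p 0.428). Slc25a31, a translocase of germ cells, was scarce, with 4 to 8 counts in controls and 8 to 26.5 in iSOD2 hearts, and had a fold change of 1.26 (SE 0.49, unadjusted p 0.00997, no adjusted p). The higher counts of Slc25a31 were those of iSOD2 7 and 8. Per kb, Slc25a4 exceeded Slc25a5 by 16.9 ± 0.929 times among controls and 18.0 ± 2.23 times among iSOD2 hearts (SD, n = 5 per genotype; two-sided exact permutation p 0.349, adjusted over 3 ratios 0.349).

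Slc25a3, which supplies phosphate for ATP synthesis, ran from 16110 to 18090 normalized counts among controls and from 16590 to 18390 among iSOD2 hearts. Its fold change was 0.07 (SE 0.05, adjusted p 0.362), with a 95% interval of −0.01 to 0.16. Among 5 ATP-Mg and phosphate carriers, Slc25a23, Slc25a24 and Slc25a25 were tested and lay between −0.08 and 0.15.

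The di- and tricarboxylate carriers include the one that exports citrate. Slc25a1 had 112, 126, 138, 122 and 151 normalized counts in controls 1, 2, 3, 4 and 6 and 106, 116, 110, 127 and 144 in iSOD2 mice 5, 7, 8, 9 and 10. The groups overlapped, with iSOD2 5 and 8 below every control and control 6 above every iSOD2 heart. Its log2 fold change was −0.10 (SE 0.13, unadjusted p 0.428), with a 95% interval of −0.36 to 0.15, so that at this depth a rise of more than 0.15 or a fall of more than 0.36 lay outside the interval. The 5 enzymes around citrate export had no member called, and Acly, which splits exported citrate, was at 0.00 (SE 0.06).

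Slc25a11 (chromosome 11, 70644027 to 70647039, minus strand) exchanges oxoglutarate for malate. It had 7289, 7286, 7448, 7936 and 6901 normalized counts in controls 1, 2, 3, 4 and 6 and 8763, 8498, 7947, 8296 and 8155 in iSOD2 mice 5, 7, 8, 9 and 10. The groups did not overlap on this scale, though iSOD2 8 and control 4 were nearly equal. On the level per kb control 4 (577) was above iSOD2 8 (560.5). The fold change of Slc25a11 was 0.18 (SE 0.05, DESeq2 adjusted p 0.00871), under the fold threshold, and its adjusted p was 0.0505 without control 3. Slc25a10, the dicarboxylate carrier, averaged 311 normalized counts in both genotypes, with a 95% interval of the log2 fold change of −0.15 to 0.15. Slc25a21, the oxoadipate carrier, had at most 6 counts in any heart.

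The malate-aspartate shuttle pairs Slc25a11 with an aspartate and glutamate carrier. Slc25a12 ran from 4354 to 5063 normalized counts among controls (median 4932) and from 4256 to 4651 among iSOD2 hearts (median 4528), a fold change of −0.09 (SE 0.05, adjusted p 0.312). Slc25a13 was at 0.06 (SE 0.06). The ratio of Slc25a12 to Slc25a13 per kb was 1.70, 1.63, 1.75, 1.69 and 1.65 in controls 1, 2, 3, 4 and 6 and 1.42, 1.71, 1.36, 1.59 and 1.56 in iSOD2 mice 5, 7, 8, 9 and 10. All iSOD2 hearts except mouse 7 were below every control, and the difference was −0.15 on the log2 scale (two-sided exact permutation p 0.0476, adjusted over 3 ratios 0.107), which did not pass the threshold. Leaving out 1 heart at a time gave adjusted p from 0.0833 to 0.238, except 0.0238 without iSOD2 7. Slc25a22, a glutamate carrier, ran from 564 to 755 normalized counts among controls and from 439 to 611 among iSOD2 hearts (log2 fold change −0.25, SE 0.11, adjusted p 0.15). The 4 shuttle enzymes were all at positive fold changes with none called, where 49.6% of all genes tested were positive. Mdh1 was highest at 0.18 (SE 0.06, adjusted p 0.0612).

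Slc25a20 brings acylcarnitines into the matrix for fatty acid oxidation. It ran from 2782 to 3119 normalized counts among controls and from 2543 to 3314 among iSOD2 hearts, the latter spanning the former, with a fold change of 0.06 (SE 0.07, adjusted p 0.708, 95% interval −0.08 to 0.20). None of its 5 partners in carnitine import was called, and their median fold change was 0.04.

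The iron carriers, Slc25a28 and Slc25a37 (mitoferrin), had opposite signs, neither called. Slc25a37 had 378, 389, 512, 426 and 464 normalized counts in controls 1, 2, 3, 4 and 6 and 395, 335, 358, 350 and 456 in iSOD2 mice 5, 7, 8, 9 and 10 (log2 fold change −0.19, SE 0.11, adjusted p 0.31). Slc25a28 was at 0.16 (SE 0.10, adjusted p 0.371). Slc25a37 is abundant in red cell precursors, and its 3 highest hearts, controls 3 and 6 and iSOD2 10, were those with the highest sums of 7 erythroid genes, at 120500, 118100 and 83480 against at most 69990 in the others. The part of these transcripts in the Slc25a37 values was not tested. The ratio of Slc25a28 to Slc25a37 per kb was 2.03 ± 0.414 among controls and 2.599 ± 0.506 among iSOD2 hearts (SD, n = 5 per genotype; two-sided exact permutation p 0.0714, adjusted 0.107).

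The remaining carriers were not called. The 8 carriers of other amino acids, methyl donors and glutathione, among them Slc25a39, Slc25a40, the S-adenosylmethionine carrier Slc25a26 and the branched-chain amino acid carrier Slc25a44, lay between −0.05 and 0.15. Slc25a44 was at 0.12 (SE 0.07, adjusted p 0.312). The relatives of the uncoupling proteins, Slc25a14, Slc25a27 and Slc25a30, lay between −0.11 and 0.17 with no adjusted p. Slc25a46, an outer membrane member tied to mitochondrial shape, was at −0.08 (SE 0.06), and Slc25a34 at 0.14 (SE 0.10).

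Genes beside the Slc25a symbols in the same transport systems gave 1 call. Of 5 tested members that bear other symbols, among them Ucp2, Ucp3, Mtch1 and Mtch2, none was called and the median fold change was 0.03. Of 10 other inner membrane carriers, 6 had an adjusted p and none was called. Both subunits of the pyruvate carrier had an adjusted p of at most 0.05, as had 6.09% of genes with one. Mpc1 was at 0.20 (SE 0.06, adjusted p 0.0348) and Mpc2 at 0.23 (SE 0.05, adjusted p 0.00188). Of 8 genes of calcium entry and exchange, 6 had an adjusted p and 1 was called, beside 2.96% of genes with one. It was Smdt1, the EMRE subunit of the uniporter, at 0.29 (SE 0.07, adjusted p 0.00416). The channel genes Vdac1, Vdac2 and Vdac3 and the outer membrane gene Tspo all had positive fold changes with none called. The channels ran from 0.04 for Vdac1 to 0.12 for Vdac3, and Tspo was at 0.17. All 6 partners of the nucleotide carriers, Vdac1 again among them, were positive, where 49.6% of all genes tested were. Of these partners 5 had an adjusted p and none was called. Ckmt1 was near the floor, with means of 0.778 normalized counts in controls and 1.75 in iSOD2 hearts (fold change SE 1.27). Ckmt2 was at 0.13 (SE 0.05, adjusted p 0.0626) and Atp5b at 0.14 (SE 0.06, adjusted p 0.101). Values with the trend with exon length removed, described next, are not given for these genes.

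Exon length moved with these fold changes. For the 37 carriers whose mean normalized count reached 50, the rank correlation (Spearman's rho) of log2 fold change with exon length was −0.478, close to −0.471 over 12151 genes, all read from the same 10 libraries. Of the 18 shorter carriers (under 2675 bp) 15 had a positive fold change, and of the 19 longer ones 7 had. With each library's trend with length removed, rho over the carriers was −0.145 and their median fold change went from 0.03 to −0.02. Slc25a4, with 1100 bp of exon, went to 0.06 (adjusted p 0.745) and Slc25a11 to 0.10 (adjusted p 0.359). Slc25a3, Slc25a5 and Slc25a20 changed sign, to −0.02 each. Slc25a33 was at 0.36 (adjusted p 0.0951) and Slc25a42 at −0.44 (adjusted p 0.0704), neither called, while Slc25a47 was at 0.71 with an adjusted p of 4.68e-04 and was the 1 carrier called, beside 0.853% of genes.

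**Figure D5:**
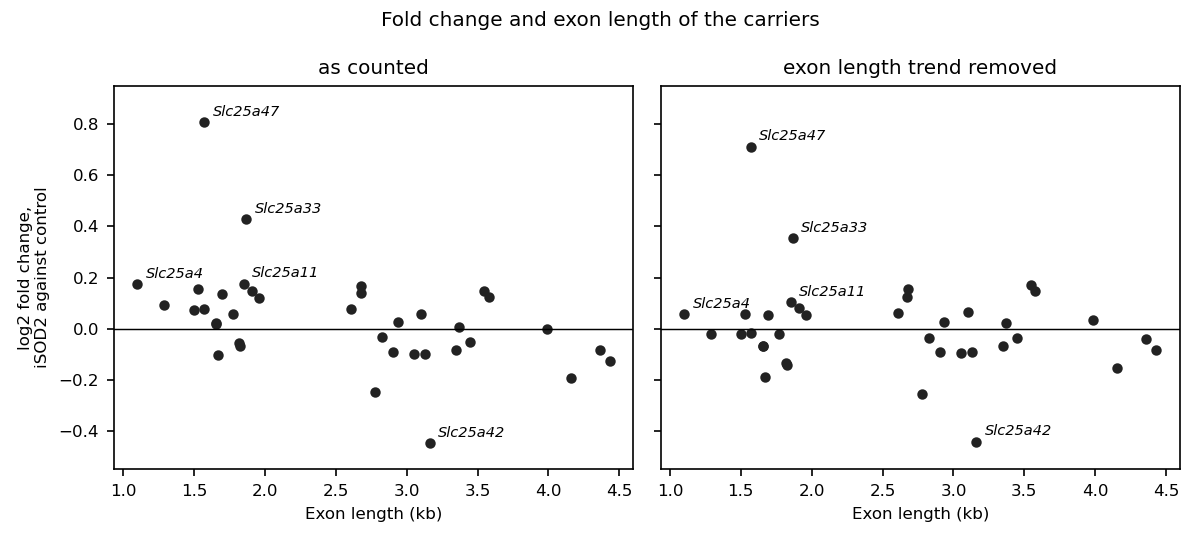
Log2 fold change of iSOD2 against control hearts (vertical) against exon length in kb (horizontal) for 37 carriers, 1 point each, with counts as deposited (left) and with the trend of each library with exon length removed (right). Slc25a4 goes from 0.17 to 0.06 and Slc25a47 from 0.81 to 0.71.

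Males and females were compared with genotype as a covariate. No carrier was called between them, beside 0.42% of genes. An unadjusted p under 0.05 was found for 2 of 44 carriers, against 1170 of 17728 genes. Of these, Slc25a12 was lower in females (mean 4473 normalized counts, 4852 in males) and Slc25a47 higher (131 and 96.2). The iSOD2 group held 3 females and the controls 2. With sex as a covariate the genotype fold change was −0.07 for Slc25a12 and 0.74 for Slc25a47. With edgeR no carrier was called between the sexes either (29 of 17728 genes). The genotype by sex interaction gave no carrier an adjusted p under 0.05. There the difference of iSOD2 from control was more positive in females for Slc25a13 (0.25, SE 0.11, unadjusted p 0.0268) and Slc25a29 (0.64, SE 0.30, unadjusted p 0.0346), with unadjusted p under 0.05 in 2 of 44 carriers against 1.18% of genes, and every adjusted p was 1.

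Between litters 1 carrier was called, beside 3.5% of genes. Slc25a25, an ATP-Mg and phosphate carrier, was at 230 ± 27.1 normalized counts in litter A (range 193 to 259, n = 4) and 298 ± 33.7 in litter B (range 241 to 346, n = 6). The ranges overlapped through control 2 and control 4. Litter B exceeded A by 0.38 on the log2 scale (SE 0.11, adjusted p 0.018 by DESeq2), and with edgeR the adjusted p of Slc25a25 was 0.0564. It was lost when control 1, 3 or 6 or iSOD2 7, 8 or 9 was left out, with adjusted p up to 0.203 (without control 1). Slc25a42 was also lower in litter B (−0.26, SE 0.11, adjusted p 0.218), and Slc25a37 was at 0.25 (SE 0.09, adjusted p 0.112), neither called.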

How the data were processed

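Total RNA depleted of ribosomal RNA was sequenced from each heart with a stranded kit. The authors trimmed adaptors with Trim Galore, aligned reads to mm10 with STAR and counted them over gene exons with the analyzeRepeats.pl script of HOMER, with no strand option stated. What the authors deposited per gene are estimated counts (steps of 0.5) without normalization. Another unit in the deposited table is the exon length in bp of 1 transcript per gene, and coordinates count from 1. Transcripts of the mitochondrial genome were not analysed here.

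Counts were rounded, genes with fewer than 10 summed counts dropped, and genotypes tested by DESeq2 1.42.0 (Wald test, R 4.3.3) with the count filter and thresholds of the study's methods, which state no covariate, and default independent filtering. Normalized counts are counts divided by DESeq2 size factors. Sex and litter were tested with genotype as a covariate, and the interaction with both terms. Adjusted p-values are Benjamini-Hochberg over all genes with one. For the ratios of 3 carrier pairs, exact permutation tests (two-sided, 252 arrangements, smallest p 0.00794) were used. The alternatives were edgeR 4.0.16 quasi-likelihood, limma 3.58.1 voom, TMM scaling, other filters, sex and litter covariates or subsets, removal of each library's loess trend with exon length, and leaving out each mouse. Intervals include counting error and the spread between mice, which came from 2 litters, so p-values reach no further than these litters.

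The members, roles, gene lists, naming rule and first alternatives were chosen with earlier results of these data known. The rule gives values by mouse for members with an adjusted p of at most 0.05, for Slc25a1, Slc25a3, Slc25a4, Slc25a5, Slc25a11, Slc25a12 and Slc25a20 in full or as ranges, and for the 5 members with a mean of at least 50 and the largest fold change. Other members are described by role and genes of other lists by size of change, and Acly, Mtch2, Alb, Apoa1 and Ttr were chosen after their values were seen. A result for 1 member is not reported here. Exons of 10 members share bases with another gene in GENCODE M21, so unstranded counting leaves those counts uncertain.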

Additional observations from a re-analysis of the deposited data

How the results depend on the processing

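Carriers called between genotypes numbered 2 in the reported analysis, 0 with edgeR quasi-likelihood and 0 with limma voom (each 0 of 17728 genes), 4 with no fold-change threshold (577 of 9479 genes), 1 with the length trend removed (116 of 13601), 0 in litter A alone (121 of 4376), 1 in litter B alone (63 of 14080), 0 in males alone (150 of 4741), 1 in females alone (90 of 14987) and 0 with the hepatocyte level as a covariate (155 of 6388). The fits within a litter or a sex rest on fewer mice. For the other changes the cause was not tested. Leaving out each mouse gave 1 to 3 carriers (166 to 492 genes), and Slc25a47 was among those called without control 3, control 4 or iSOD2 7. With no count filter, a mean of at least 50 or no independent filtering (the last chosen after seeing the data) 3 were called, with Slc25a47 the addition. The fold changes of Slc25a33, Slc25a42 and Slc25a47 kept their sign in all 25 alternatives each, with ranges of 0.31 to 0.54, −0.56 to −0.29 and 0.64 to 0.87. These carriers were named for the size of their difference in the same hearts, and each alternative refits those hearts or some of them. A kept sign was thus likely beforehand. Slc25a3 changed sign with the length trend removed (−0.0229), Slc25a5 with the length trend removed (−0.0205) and in males alone (−0.0102), and Slc25a20 with the length trend removed (−0.0217) and in litter A alone (−0.0234). Between litters, 1 carrier was called (548 of 15654 genes), 0 with edgeR (365 of 17728) and 0 to 2 when each mouse was left out (300 to 705 genes). The log2 difference in the ratio of Slc25a12 to Slc25a13 ran from −0.1869 to −0.1042 when each mouse was left out. The genotypes share no replicate numbers but share litters, and with litter as a covariate 2 carriers and 326 of 9474 genes were called. DESeq2's independent filtering left 14 of 44 carriers without an adjusted p, and all 44 had one with it off. Counts below 10 in all, in 3 carriers, were too few to test.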
